A study of Mus musculus with 12 samples.

Results

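The genes of the activin system and Gdf15 were followed by RNA-seq in cultured mouse mesangial cells (MMC), the contractile support cells between the capillaries of the kidney glomerulus. The members were chosen by gene symbol as a family of ligands, antagonists and receptors, and are the 10 genes Inhba, Inhbb, Gdf15, Fst, Fstl3, Fstl1, Acvr2a, Acvr2b, Acvr1b and Acvr1 of 25230 genes counted. The cells were primary cultures grown from pooled glomeruli of wild-type (WT) mice or of mice of the lncMGC-KO5 line (KO). In this line Cas9 and a pair of guide RNAs, injected into C57BL/6J embryos, removed sequence around the transcription start of lncMGC, the long non-coding RNA that hosts a large cluster of microRNAs. Cells of each genotype were either kept serum-depleted (SD) or given TGF-β at 10 ng/ml, in both cases for 24 h, which made 4 groups of 3 libraries each, called WT-SD and WT-TGF for the wild type and KO-SD and KO-TGF for the edited line. The KO cells came from a single edited line, so the deletion and any other difference between these cultures cannot be told apart. No symbol lncMGC is in the count tables (0 genes), and the deletion was therefore not checked, so that KO stands for the libraries as labelled. Mirg is described as a piece of the far end of the same transcript. It lies outside the deleted stretch, so its reads cannot show the deletion itself. It had 47 to 59 counts in the WT-SD libraries and 72 to 89 in those labelled KO-SD, and 73 to 80 in WT-TGF and 68 to 87 in KO-TGF.

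Activins are dimers of inhibin beta subunits, encoded by Inhba and Inhbb, and belong to the TGF-β superfamily. They bind the type II receptors ACVR2A and ACVR2B, which recruit and activate a type I receptor, mainly ACVR1B, and this kinase phosphorylates SMAD2 and SMAD3, the same effectors that the TGF-β receptor uses. Follistatin (Fst) and follistatin-like 3 (Fstl3) encode secreted proteins that wrap around activin and keep it from its receptors. ACVR1 is a type I receptor best known for bone morphogenetic proteins, and it can also bind activin. FSTL1 carries a follistatin domain but belongs to the SPARC family of matrix proteins. GDF15 is a distant member of the superfamily that many cells secrete under stress and that signals through GFRAL and RET. In the kidney, activin A has been studied as a factor made by mesangial cells and fibroblasts in fibrosis, and follistatin as its antagonist.

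The 250 bases before the annotated start are given for the 2 members with the largest rise after TGF-β, Fstl3 and Inhba, and for the member that differed most between the genotypes, Gdf15. They are RefSeq sequences of GRCm38.p6, the assembly of mm10, written 5′ to 3′ on the strand of the gene. The Inhba window is chr13:16011601-16011850 on the plus strand, the Fstl3 window chr10:79777024-79777273 on the plus strand and the upstream Gdf15 window chr8:70632457-70632706 on the minus strand. Capitals mark matches on either strand to the letters searched.
Inhba: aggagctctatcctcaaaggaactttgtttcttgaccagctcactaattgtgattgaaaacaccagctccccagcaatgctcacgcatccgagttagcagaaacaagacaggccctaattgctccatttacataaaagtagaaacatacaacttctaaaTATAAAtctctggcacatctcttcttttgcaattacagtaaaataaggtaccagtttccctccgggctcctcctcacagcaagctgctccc
Fstl3: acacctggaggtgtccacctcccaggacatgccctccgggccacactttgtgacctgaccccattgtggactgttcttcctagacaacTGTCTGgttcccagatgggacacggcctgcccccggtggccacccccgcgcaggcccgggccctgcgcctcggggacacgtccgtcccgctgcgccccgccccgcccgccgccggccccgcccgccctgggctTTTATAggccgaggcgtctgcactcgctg
Gdf15: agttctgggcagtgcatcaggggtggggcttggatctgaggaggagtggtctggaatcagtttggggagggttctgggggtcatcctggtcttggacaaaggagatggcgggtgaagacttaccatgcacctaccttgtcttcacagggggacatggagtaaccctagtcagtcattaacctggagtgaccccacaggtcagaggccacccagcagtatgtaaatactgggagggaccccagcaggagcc
Of the 10 members, 9 had such windows in the RefSeq table, 10 windows in all. The letters searched on both strands were CAGACA (bound by SMAD proteins), TGANTCA (AP-1), TGATGNAA (C/EBP and ATF dimers), TGACGTCA (the cyclic AMP response element) and TATAAA (the TATA box), and none of these overlapped another match in the windows of the members. The Fstl3 window held CAGACA on the reverse strand, written TGTCTG above, at position -162 from the start, and the TATA letters on the reverse strand at position -29. The Inhba window held TATAAA at position -91. None of the 5 sets of letters was found in the other windows, among them that of Gdf15. Of all 32851 windows of this length, 17.1% held CAGACA, 6.75% held TGANTCA, 3.45% held TGATGNAA, 1.55% held TGACGTCA and 12.4% held TATAAA.

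Each library had between 19898050 and 22827706 counts on genes. Markers of mesangial and smooth muscle cells (12 genes) summed to 4404 to 4577 CPM (counts scaled to the TMM library size) in WT-SD, 8871 to 9105 in WT-TGF, 7436 to 7476 in KO-SD and 15024 to 15209 in KO-TGF, while Thy1, which marks mesangial cells of the rat, had at most 1 count. Acta2, Vim and Tagln made up most of these sums, and other markers went the other way, among them Des (desmin), at 7.53 CPM in WT-SD, 5.64 in WT-TGF, 0.530 in KO-SD and 0.250 in KO-TGF, and Pdgfra, at 3.48, 0.648, 1.98 and 0.215 CPM. These markers were singled out with their values in view. Markers of macrophages (14 genes) summed to 38.5 to 42.0 CPM in WT-SD, 21.3 to 25.4 in WT-TGF, 8.43 to 9.91 in KO-SD and 2.65 to 2.98 in KO-TGF, with 7 of the 14 at 0 in every KO-SD library, 6 in every KO-TGF library and 0 of them in the WT groups. Markers of podocytes (8 genes) summed to 452 to 461, 457 to 477, 219 to 228 and 208 to 223 CPM in the same order of groups, with the defining gene Nphs1 at no more than 1 count. Synpo, Wt1 and Podxl, at means of 242, 97.2 and 96.2 CPM in WT-SD, made up most of this sum. In the same order of groups, endothelial markers (8 genes) summed to 32.4 to 33.0, 20.3 to 22.7, 17.3 to 18.6 and 9.37 to 11.01 CPM. Nearly all of this was Ehd3, at means of 32.1, 20.8, 17.2 and 9.82 CPM. Tubular markers (8 genes) summed to 71.0 to 77.0, 18.02 to 19.6, 19.2 to 22.3 and 4.37 to 4.63 CPM, with Umod at 0. In WT-SD most of this was Lrp2 (41.9 CPM) and Cdh16 (27.0 CPM). Aqp1 was higher in KO-SD (6.82 CPM) than in WT-SD (4.03 CPM). These genes too were named with their values in view. In bulk RNA, fewer cells of a type and less RNA per cell cannot be told apart, and the part of these cells in the results was not tested.

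Compared per exon length, as RPKM (CPM per kilobase of exon), Fstl1 was the most abundant member in all 4 groups, at a mean of 461 RPKM in WT-SD, 863 in WT-TGF, 602 in KO-SD and 1032 in KO-TGF. In WT-SD cells the antagonist Fst (86.0 RPKM) stood above Inhba (62.6 RPKM), and these were followed by Acvr1 (18.1), Acvr2a (9.01), Inhbb (7.77), Gdf15 (6.63), Acvr2b (5.79), Fstl3 (4.66) and Acvr1b (4.52). Fstl3 at 4.45 to 4.81 RPKM and Acvr1b at 4.35 to 4.61 RPKM were the only neighbors in that order whose libraries overlapped. In WT-TGF the order became Fstl1, Inhba (279), Fst (57.8), Fstl3 (44.1), Acvr1 (42.4), Acvr2a (8.08), Inhbb (4.96), Acvr2b (3.91), Acvr1b (3.38) and Gdf15 (3.32), and Gdf15, at 2.84 to 3.72 RPKM, overlapped both Acvr1b and Acvr2b. In KO-SD, Inhba (80.8 RPKM) stood above Fst (46.7), and the others were Acvr1 (20.5), Acvr2a (10.2), Fstl3 (7.11), Inhbb (4.93), Acvr2b (4.26), Acvr1b (3.09) and Gdf15 (1.65). In KO-TGF, Fst (31.0 RPKM) ranked below Inhba (348), Acvr1 (49.5) and Fstl3 (40.8), and above Acvr2a (10.4), Inhbb (4.73), Acvr2b (2.78), Acvr1b (2.09) and Gdf15 (0.572). No neighbors overlapped in the KO groups.

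**Figure D1:**
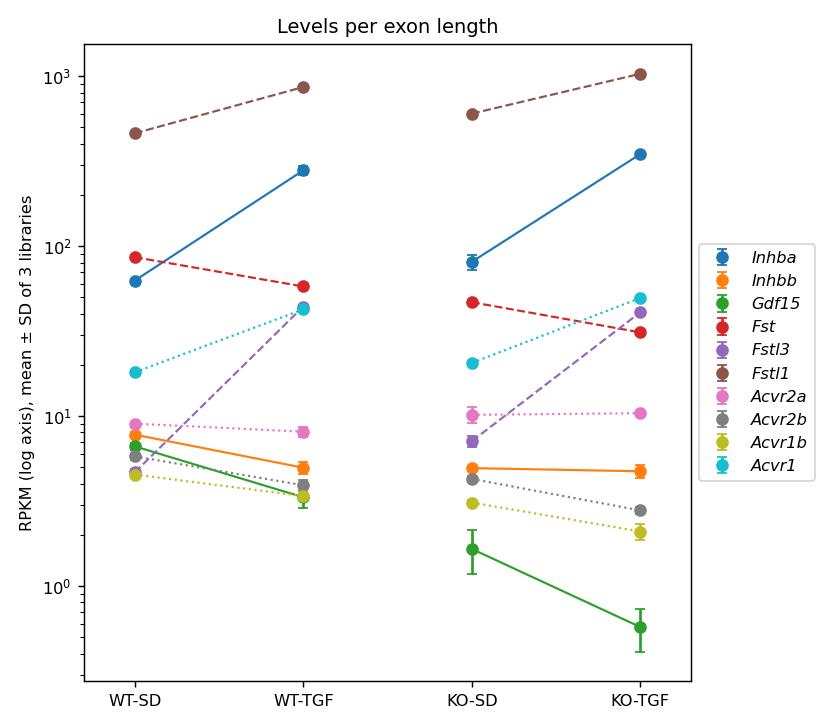
Levels of the 10 genes per exon length in the 4 groups, as RPKM on a log axis, with points at the mean of 3 libraries and bars at ± SD. Lines join SD and TGF within a genotype, solid for ligands, dashed for follistatin genes and dotted for receptors: Inhba crosses above Fst after TGF-β in WT and already lies above it in KO-SD, and Gdf15 is lowest in KO-TGF at 0.572 RPKM.

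All 10 members had RPKM >1 in at least 1 library and were tested among 11478 genes, Gdf15 passing through the other groups only, since it was below 1 RPKM in every KO-TGF library. Calls are at FDR <5% in edgeR's quasi-likelihood test on all 12 libraries. After TGF-β in WT cells, 4 members rose and 6 fell, where 39.3% of all genes tested rose and 33.4% fell, and 3 members changed by more than 2-fold, where 9.75% of all genes did. In KO cells, 4 rose, 4 fell and 2 did not pass the test, against 36.4% and 37.8% of all genes, and 4 changed by more than 2-fold, against 13.3%. Between KO-SD and WT-SD, 5 members were higher and 5 lower in KO, against 35.6% and 21.5% of all genes, 1 of them (Gdf15) by more than 2-fold, against 6.33%. Between KO-TGF and WT-TGF, 4 were higher, 5 lower and 1 did not pass, against 28.9% and 26.3%, again with Gdf15 alone past 2-fold, against 5.99%. The TGF-β response itself differed between the genotypes for 3 members. The signed difference of KO minus WT was positive for 1 of them, Inhbb, whose fall in WT was not found in KO, and negative for 2, Fstl3 and Fstl1, which rose less in KO, where it was positive for 7.69% and negative for 18.7% of all genes. Over the members, the median log2 fold change was -0.29 in WT and -0.01 in KO after TGF-β, beside 0.03 and -0.01 over all genes, and -0.13 in SD and -0.09 in TGF for KO against WT, beside 0.05 and 0.01. These comparisons share libraries and are not independent of each other.

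With scaling by library size in place of TMM the median of all genes moved to -0.16 and -0.23 for the TGF-β responses of WT and KO, and to -0.05 and -0.12 for KO against WT in SD and TGF. The shares of genes called higher and lower then became 23.1% and 52.3% in WT, 20.1% and 58.1% in KO, 21.31% and 36.25% between the genotypes in SD and 14.35% and 46.85% in TGF. Of the members, 6 in place of 4 then fell with TGF-β in KO, 4 in place of 5 were higher in KO-SD and 6 in place of 5 were lower in KO-TGF. Directions below held under this scaling, except where given. The study calls the 3 samples of a group independent, without saying whether they were separate cultures or animals. The p-values therefore measure only the spread between these samples, which may be technical. In edgeR the common variation between libraries of a group, beyond counting noise, was 0.0269 of the level. A single gene compared in 3 against 3 libraries cannot go below p = 0.1 in an exact permutation test, and the p-values below come from the fit across all genes.

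**Figure D2:**
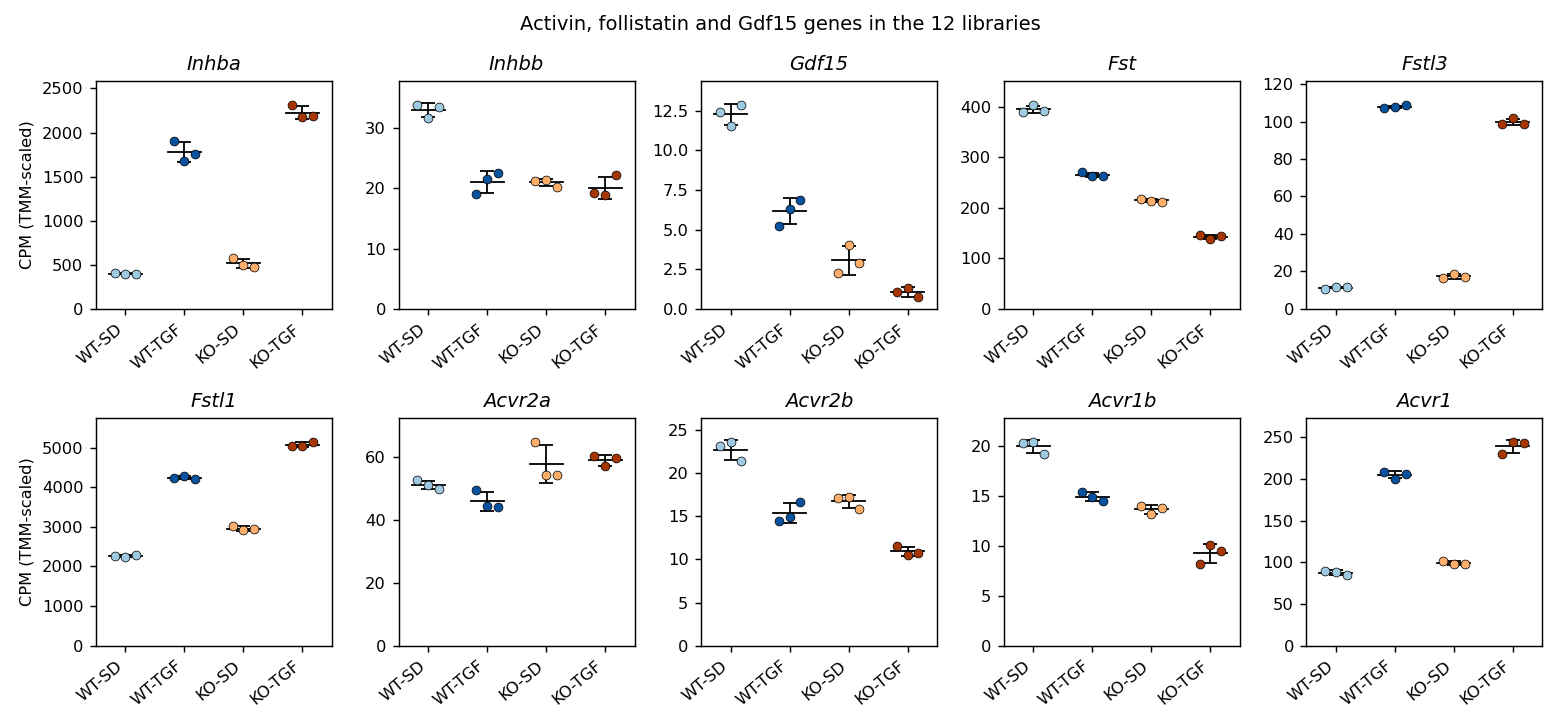
TMM-scaled CPM of each of the 10 genes in the 12 libraries, on linear axes that start at 0. Each point is 1 library and the bars are the mean ± SD of 3, and Gdf15 and Fst step down from WT-SD through WT-TGF and KO-SD to KO-TGF without overlap between groups.

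The ligand gene Inhba, which encodes the subunit of activin A (ENSMUSG00000041324, chr13:16011851-16031621, plus strand, GRCm38), rose with TGF-β in both genotypes and was somewhat higher in KO. The WT-SD libraries had 407, 401 and 393 CPM and the WT-TGF libraries 1905, 1683 and 1759.6 CPM. The KO-SD libraries had 576, 493 and 478 CPM and the KO-TGF libraries 2307, 2174 and 2187 CPM. No groups overlapped, and the first KO-SD library was the highest of its group. With TGF-β, Inhba rose 4.45-fold in WT (log2 fold change 2.15, standard error 0.0446, adjusted p = 2.296e-27 by Benjamini-Hochberg over all genes in edgeR's quasi-likelihood test) and 4.31-fold in KO (2.11, standard error 0.0443, adjusted p = 2.644e-27). The difference of the responses was -0.05 on the log2 scale, with a 95% interval from -0.17 to 0.08 (adjusted p = 0.6253 in the same edgeR test). Inhba was 28.9% higher in KO-SD than in WT-SD (log2 fold change 0.37, adjusted p = 2.172e-08 in edgeR) and 24.7% higher in KO-TGF than in WT-TGF (0.32, adjusted p = 1.271e-07 in edgeR), and these became 0.26 and 0.19 when scaled by library size.

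Inhbb, the subunit of activin B (ENSMUSG00000037035, chr1:119415465-119422248, minus strand), stood apart from Inhba in that WT-SD was the only high group. Its WT-SD libraries had 33.8, 31.8 and 33.6 CPM, against 19.1, 21.6 and 22.6 CPM in WT-TGF. The KO-SD libraries had 21.3, 21.5 and 20.2 CPM and the KO-TGF libraries 19.2, 19.0 and 22.2 CPM. The WT-TGF, KO-SD and KO-TGF libraries overlapped, and all lay below the WT-SD libraries. With TGF-β, Inhbb fell by 36.1% in WT (log2 fold change -0.65, adjusted p = 8.427e-11, edgeR's quasi-likelihood test), whereas in KO the log2 fold change was -0.06 with a 95% interval from -0.20 to 0.08 (adjusted p = 0.4359 in edgeR). The difference between the responses was 0.59 (standard error 0.0927, adjusted p = 1.076e-05 in edgeR). The KO-SD level of Inhbb lay below that of WT-SD by -0.65 on the log2 scale (adjusted p = 1.273e-10 in edgeR), and the KO-TGF and WT-TGF values gave -0.07 with an interval from -0.21 to 0.07 (adjusted p = 0.4192 in edgeR). When scaled by library size, the KO response (-0.28, adjusted p = 0.0005302) and the difference in TGF (-0.20, adjusted p = 0.01209) passed the same edgeR test. Of the summed RPKM of both beta subunits, Inhba made up 88.6% to 89.4% in WT-SD, 93.9% to 94.7% in KO-SD, 98.1% to 98.5% in WT-TGF and 98.5% to 98.8% in KO-TGF, so transcripts of the activin A subunit were the larger share in every library.

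Gdf15, the stress-induced cytokine gene (ENSMUSG00000038508, chr8:70629393-70632456, minus strand), was the member with the largest difference between the genotypes, and its level dropped both with TGF-β and in KO. Raw counts were 277, 272 and 287 in WT-SD, 111, 141 and 139 in WT-TGF, 49, 83 and 63 in KO-SD and 20, 25 and 14 in KO-TGF. Scaled, these were 12.3 ± 0.644 CPM (SD, n = 3) in WT-SD, 6.15 ± 0.822 in WT-TGF, 3.06 ± 0.893 in KO-SD and 1.06 ± 0.303 in KO-TGF, with no overlap between any of the groups. KO was lower than WT by a log2 fold change of -2.01 in SD (standard error 0.134, adjusted p = 4.937e-14) and of -2.53 in TGF (standard error 0.204, adjusted p = 4.447e-12), both in edgeR's quasi-likelihood test, so that Gdf15 stood at 0.248 of the WT level in KO-SD and at 0.173 of it in KO-TGF. With TGF-β, Gdf15 changed by -0.995 in WT (standard error 0.116, adjusted p = 6.442e-09 in edgeR) and by -1.52 in KO (standard error 0.237, adjusted p = 1.27e-06 in edgeR). The difference of the responses was -0.52, with a 95% interval from -1.08 to 0.04 (adjusted p = 0.1724 in edgeR), and without the first KO-SD library, the lowest of its group, it was -0.70 (adjusted p = 0.03599). The summed macrophage markers given above stepped down in the same order of groups as Gdf15. This order was not particular to them, since the summed endothelial markers and the members Fst and Acvr1b had it too. The part of macrophage or endothelial RNA in the Gdf15 values was not tested. The counts behind the KO-TGF values are few, and the standard errors of Gdf15 were the largest among the members in each of the 5 comparisons.

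Among the antagonists, Fst, which encodes follistatin (ENSMUSG00000021765, chr13:114452290-114458951, minus strand), fell by similar amounts with TGF-β in both genotypes and was lower in KO under both conditions. The libraries had 389.9, 403 and 391 CPM in WT-SD and 270.2, 262 and 264 CPM in WT-TGF. The KO-SD libraries had 218, 214 and 212 CPM and the KO-TGF libraries 146, 138 and 143 CPM. None of the groups overlapped, and the KO cells without TGF-β already lay below the WT cells that had received it. TGF-β lowered Fst by a log2 fold change of -0.57 in WT (adjusted p = 1.058e-18) and of -0.59 in KO (adjusted p = 3.492e-18) in edgeR's quasi-likelihood test, with a difference of the responses of -0.02 and a 95% interval from -0.10 to 0.06 (adjusted p = 0.7892). KO was lower than WT by -0.88 in SD (adjusted p = 7.405e-23 in edgeR) and by -0.90 in TGF (adjusted p = 2.329e-22 in edgeR), that is by 45.7% and 46.3%. Fst shares 115 exon bases with the antisense gene Gm47040 on the other strand, and the counting was by strand.

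Fstl3, the paralog of Fst that also binds activin (ENSMUSG00000020325, chr10:79777272-79782630, plus strand), rose with TGF-β where Fst fell, and had the largest TGF-β response of the 10 genes. The WT-SD libraries had 10.9, 11.5 and 11.8 CPM, the WT-TGF libraries 107, 108 and 109, the KO-SD libraries 16.4, 18.7 and 17.1, and the KO-TGF libraries 98.8, 102 and 98.8. KO was thus the higher genotype in SD and the lower in TGF, with no overlap in either. With TGF-β, Fstl3 rose 9.45-fold in WT (log2 fold change 3.24, standard error 0.0474, adjusted p = 3.325e-31 in edgeR's quasi-likelihood test) and 5.74-fold in KO (2.52, standard error 0.0453, adjusted p = 5.02e-29). The responses differed by -0.72 (standard error 0.0723, adjusted p = 3.13e-09 in edgeR). The difference from WT was 0.61 in SD (adjusted p = 1.166e-09 in edgeR) and -0.11 in TGF (adjusted p = 0.007489 in edgeR), and the latter was -0.24 when scaled by library size. Fstl3 shares 1157 exon bases with Prss57 on the opposite strand. Of the summed RPKM of Fst and Fstl3, Fst made up 94.7% to 95.03% in WT-SD, 85.9% to 87.6% in KO-SD, 56.4% to 57.3% in WT-TGF and 42.0% to 44.0% in KO-TGF.

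Fstl1, the abundant follistatin-domain glycoprotein (ENSMUSG00000022816, chr16:37776873-37836514, plus strand), rose with TGF-β and was higher in KO. Its mean CPM (± SD, n = 3) was 2264 ± 29.6 in WT-SD, 4240.1 ± 38.5 in WT-TGF, 2957 ± 52.7 in KO-SD and 5072 ± 58.7 in KO-TGF, with no overlap between groups. The log2 fold change with TGF-β was 0.91 in WT (adjusted p = 3.969e-27, edgeR's quasi-likelihood test) and 0.78 in KO (adjusted p = 1.513e-25), a small difference of -0.13 that passed the test (adjusted p = 0.0005051 in edgeR). KO exceeded WT by 0.39 in SD (adjusted p = 3.426e-17 in edgeR) and 0.26 in TGF (adjusted p = 5.221e-13 in edgeR), the latter 0.13 when scaled by library size.

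**Figure D3:**
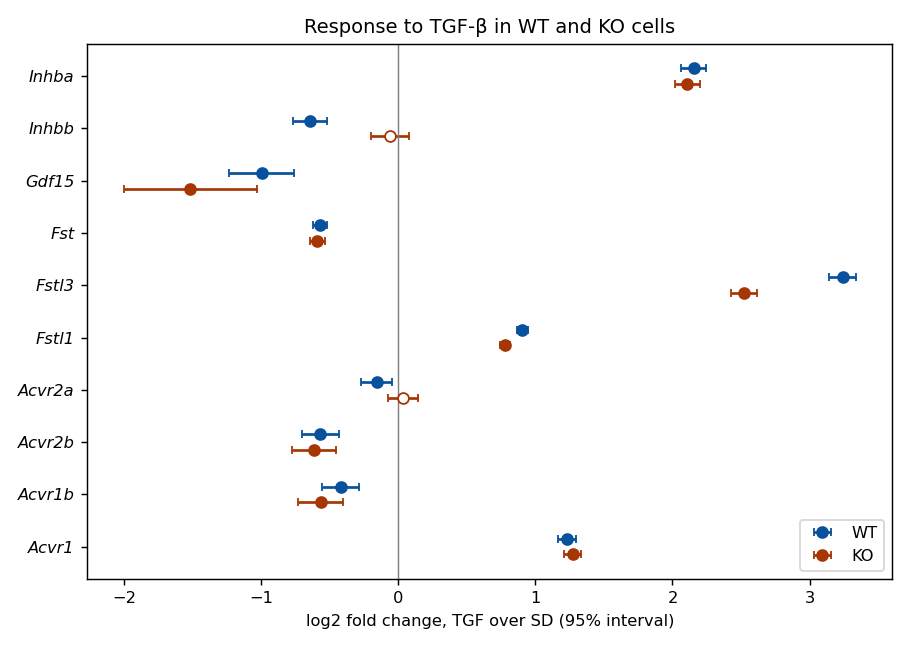
Response of each gene to TGF-β in WT and KO cells, as the log2 fold change of TGF over SD on the horizontal axis with its 95% interval, and an open symbol where the edgeR test was not passed. Inhba, Fstl3, Fstl1 and Acvr1 lie to the right of 0 in both genotypes, and the intervals of the genotypes do not overlap for Fstl3, Inhbb and Fstl1.

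Of the 4 receptors among the members, Acvr1 alone passed 2-fold with TGF-β. Acvr1, a type I receptor (ENSMUSG00000026836, chr2:58388644-58567157, minus strand) had 87.3 ± 2.79 CPM (SD, n = 3) in WT-SD against 205 ± 4.26 in WT-TGF, and 99.1 ± 1.88 in KO-SD against 239 ± 7.76 in KO-TGF, with no overlap. The log2 fold changes were 1.23 (adjusted p = 3.381e-25) and 1.27 (adjusted p = 9.984e-26) in edgeR's quasi-likelihood test, with a difference of 0.04 and a 95% interval from -0.05 to 0.13. KO was higher than WT by 0.18 in SD (adjusted p = 2.192e-05 in edgeR) and 0.22 in TGF (adjusted p = 7.943e-08 in edgeR), and by 0.08 and 0.09 when scaled by library size.

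Acvr1b, the main type I receptor for activin (ENSMUSG00000000532, chr15:101174067-101213684, plus strand), went the other way. Its libraries had 20.3, 20.4 and 19.2 CPM in WT-SD, 15.4, 14.9 and 14.5 in WT-TGF, 14.0, 13.2 and 13.8 in KO-SD and 8.19, 10.0 and 9.48 in KO-TGF. No groups overlapped, with WT-SD highest and KO-TGF lowest. TGF-β lowered it by -0.42 in WT (adjusted p = 1.471e-06) and -0.57 in KO (adjusted p = 2.758e-07) on the log2 scale, and KO was lower than WT, by -0.55 without TGF-β (adjusted p = 2.982e-08) and -0.69 with it (adjusted p = 9.257e-09), all in edgeR's quasi-likelihood test. The responses differed by -0.15, with an interval from -0.36 to 0.07.

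The type II receptors, which bind activin first, did not move together. Acvr2b (ENSMUSG00000061393, chr9:119402118-119434995, plus strand) had 22.7 ± 1.18 CPM (SD, n = 3) in WT-SD, 15.4 ± 1.17 in WT-TGF, 16.8 ± 0.756 in KO-SD and 10.9 ± 0.558 in KO-TGF, and of these groups only WT-TGF and KO-SD overlapped. It fell with TGF-β by -0.57 in WT (adjusted p = 5.921e-09) and -0.62 in KO (adjusted p = 2.417e-08) on the log2 scale, and was lower in KO, by -0.44 without TGF-β (adjusted p = 8.13e-07) and -0.49 with it (adjusted p = 3.782e-06), all in edgeR's quasi-likelihood test. The difference of its responses was -0.05, with an interval from -0.26 to 0.16.

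Acvr2a (ENSMUSG00000052155, chr2:48814109-48903269, plus strand) was the steadiest member. Its libraries had 52.6, 51.1 and 49.98 CPM in WT-SD, 49.4, 44.4 and 44.0 in WT-TGF, 64.8, 54.2 and 54.3 in KO-SD and 60.3, 57.1 and 59.9 in KO-TGF. The KO groups overlapped each other, and all of their libraries lay above the WT libraries. In KO-TGF it was higher than in WT-TGF by 0.36 (adjusted p = 1.516e-06 in edgeR's quasi-likelihood test). The smaller differences, -0.16 with TGF-β in WT (adjusted p = 0.01155 in edgeR) and 0.17 between KO-SD and WT-SD (adjusted p = 0.005896 in edgeR), rested on single libraries. The first was -0.12 (adjusted p = 0.07846) without the second WT-TGF library and -0.13 (adjusted p = 0.06681) without the third, and the other was 0.08 (adjusted p = 0.1239) without the first KO-SD library, in edgeR, 0.07 (adjusted p = 0.2625) when scaled by library size and 0.13 (adjusted p = 0.06738) in DESeq2. In KO the TGF-β response was 0.03 (adjusted p = 0.5981 in edgeR), 0.12 without the first KO-SD library (adjusted p = 0.01417) and -0.19 when scaled by library size (adjusted p = 0.001989). The difference of its responses was 0.19 with a 95% interval from 0.03 to 0.35 before adjustment (adjusted p = 0.06706 in edgeR), and it passed without the first WT-TGF library (0.24, adjusted p = 0.02078) or the first KO-SD library (0.28, adjusted p = 0.0003657) and in DESeq2 (0.23, adjusted p = 0.04334). Acvr2a shares 446 exon bases with Orc4 on the opposite strand. Of the summed RPKM of both type II receptors, Acvr2a made up 59.9% to 61.7% in WT-SD, 64.6% to 70.2% in WT-TGF, 68.5% to 72.3% in KO-SD and 78.3% to 79.4% in KO-TGF.

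**Figure D4:**
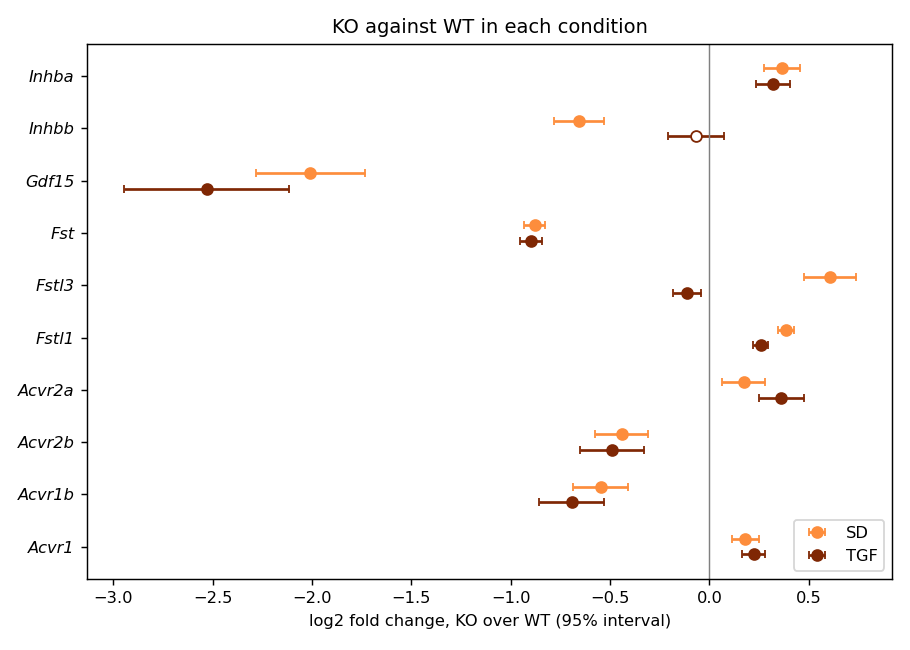
Difference between the genotypes for each gene, as the log2 fold change of KO over WT on the horizontal axis with its 95% interval, in SD (light) and in TGF (dark), and an open symbol where the edgeR test was not passed. Gdf15 lies farthest from 0, at -2.01 and -2.53, and Fstl3 is the gene whose points lie on opposite sides of 0.

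To set the subunit of activin A beside the antagonist Fst, the RPKM of Inhba was divided by that of Fst in each library. The ratio was 0.750, 0.715 and 0.721 in the WT-SD libraries, 5.06, 4.61 and 4.79 in WT-TGF, 1.90, 1.65 and 1.62 in KO-SD and 11.4, 11.3 and 10.96 in KO-TGF. By RPKM, Fst thus exceeded Inhba in the WT-SD libraries only. This order rests on the exon lengths used, 6390 bases for Inhba and 4589 for Fst. In mean CPM the 2 genes were near each other in WT-SD, at 400 and 395. Other lengths were not tried. The mean ratio was 0.729 ± 0.0185 (SD, n = 3) in WT-SD, 4.82 ± 0.227 in WT-TGF, 1.73 ± 0.153 in KO-SD and 11.2 ± 0.221 in KO-TGF, which is 6.62-fold higher with TGF-β in WT, 6.49-fold in KO, 2.37-fold higher in KO than WT in SD and 2.32-fold in TGF. With the sum of Fst and Fstl3 below the line the mean ratios were 0.691, 2.74, 1.499 and 4.84 in the same order of groups, and the folds 3.96 and 3.23 for TGF-β and 2.17 and 1.77 for KO. No groups overlapped in either ratio, which was not tested. These are ratios of RNA and not of the secreted proteins.

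**Figure D5:**
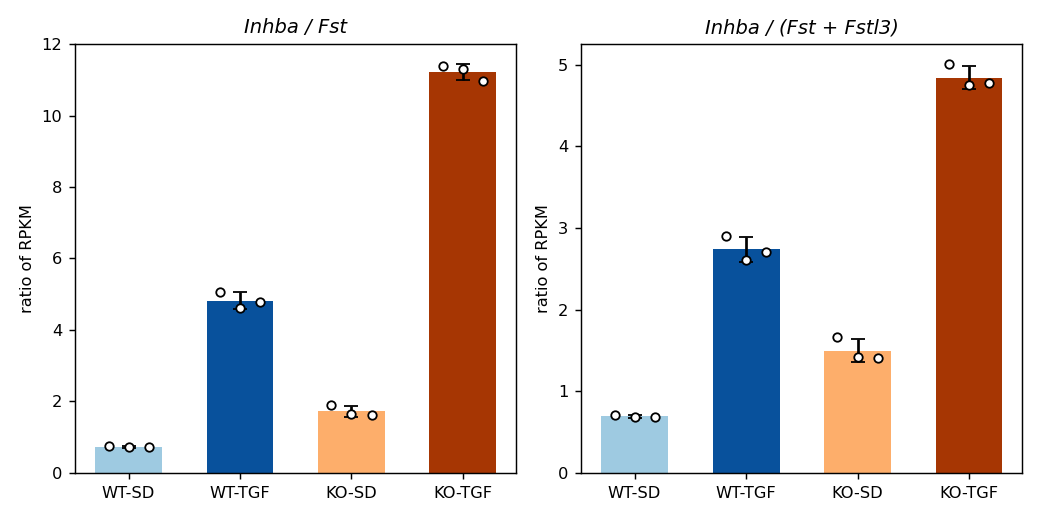
Ratio of Inhba to Fst (left) and of Inhba to the sum of Fst and Fstl3 (right), each from RPKM, with bars for the mean of 3 libraries, error bars for the SD and points for the libraries, on axes that start at 0. The ratio to Fst is 0.729 in WT-SD and 11.2 in KO-TGF.

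Of 10 genes for other ligands of the class, 2 were tested, and Inhbc, Mstn, Gdf3 and Nodal had 0 counts in all libraries. Both of the tested genes, Inha and Gdf11, are named although neither passed 2-fold, a choice made with their values in view. Inha, whose product pairs with a beta subunit to form inhibin, the opponent of activin, had 15.9 CPM in WT-SD and fell to 8.64 in WT-TGF (-0.88 on the log2 scale, adjusted p = 7.787e-11 in edgeR) and likewise from 11.6 in KO-SD to 7.07 in KO-TGF (-0.72, adjusted p = 7.214e-08 in edgeR). Its lower level in KO-TGF (-0.29, adjusted p = 0.01657 in edgeR) lost its call without the first WT-TGF library (-0.26, adjusted p = 0.0531), the second KO-TGF library (-0.26, adjusted p = 0.05965) or the third (-0.23, adjusted p = 0.09855). Gdf11, a ligand of the same receptors, stood at 83.0 CPM in KO-SD against 72.9 in WT-SD (0.19, adjusted p = 0.0001768 in edgeR), a call lost when scaled by library size (0.08, adjusted p = 0.07462).

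Of 11 other receptors and coreceptors, 2 were tested, and Gfral, the receptor for GDF15, had 0 counts in all libraries. Tgfbr3, or betaglycan, the coreceptor that lets inhibin compete with activin, fell from 121 CPM in WT-SD to 47.9 in WT-TGF (-1.34 on the log2 scale, adjusted p = 2.834e-23 in edgeR) and from 102 in KO-SD to 34.8 in KO-TGF (-1.55, adjusted p = 4.882e-24 in edgeR), and was lower in KO by -0.25 in SD and -0.46 in TGF (adjusted p = 8.716e-07 and 1.074e-09 in edgeR). Bmpr2, a type II receptor for bone morphogenetic proteins, rose by 0.46 in WT and 0.37 in KO (adjusted p = 1.466e-12 and 2.099e-10 in edgeR). It is named outside the rule, with its values in view, being the other receptor tested.

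Among 13 other genes with a follistatin domain, 6 were tested, of which 5 rose and 1 fell with TGF-β in WT, and 3 rose and 2 fell in KO, beside 39.3% and 33.4% of all genes in WT and 36.4% and 37.8% in KO. Compared with WT, KO had 5 of them higher and 1 lower in SD, then 4 higher and 2 lower in TGF, beside 35.6% and 21.5%, then 28.9% and 26.3% of all genes. Tmeff1, a membrane protein with follistatin modules, rose from 34.3 CPM in WT-SD to 99.6 in WT-TGF and from 69.2 in KO-SD to 180.1 in KO-TGF, and was higher in KO by 1.01 on the log2 scale in SD (adjusted p = 8.029e-17 in edgeR) and 0.85 in TGF (adjusted p = 3.416e-17 in edgeR). Its relative Tmeff2 rose in WT from 7.42 to 15.9 CPM (1.09, adjusted p = 2.632e-12 in edgeR) and was at 29.3 CPM in KO-SD and 29.4 CPM in KO-TGF, a difference between the responses of -1.09 (adjusted p = 3.447e-09 in edgeR). The SPARC-related matrix genes Smoc2 and Smoc1 parted, Smoc2 being higher in KO-TGF than in WT-TGF by 0.93 (adjusted p = 1.559e-20 in edgeR) and Smoc1 lower by -1.15 (adjusted p = 7.922e-19 in edgeR).

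Of 10 genes of signal transduction and feedback, 9 were tested, and 4 rose and 2 fell with TGF-β in both WT and KO, beside the same shares of all genes. Pmepa1, a feedback inhibitor that is itself a SMAD target, rose from 168 CPM in WT-SD to 1043 in WT-TGF (2.63 on the log2 scale, adjusted p = 1.714e-33 in edgeR) and from 193 in KO-SD to 954 in KO-TGF (2.31, adjusted p = 2.505e-32 in edgeR), and its response was smaller in KO by -0.33 (adjusted p = 4.094e-07 in edgeR). Skil, which encodes the SMAD corepressor SnoN, rose by 1.37 in WT and 1.34 in KO (adjusted p = 1.299e-25 and 3.088e-25 in edgeR). In level, KO had 2 genes of the list higher and 3 lower in SD, beside 35.6% and 21.5% of all genes. In TGF, 1 was higher and 4 lower, beside 28.9% and 26.3%. When scaled by library size, 5 genes were called lower for each TGF-β response, beside 52.3% of all genes in WT and 58.1% in KO. For KO against WT they were 5 in SD and 7 in TGF, beside 36.25% and 46.85%.

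The 11 genes that accompany or drive Gdf15 in stress responses were all tested. With TGF-β, under which Gdf15 fell, 9 rose and 1 fell in WT, where 39.3% and 33.4% of all genes did. The KO response had 8 that rose and 0 that fell, beside 36.4% and 37.8% of all genes. When scaled by library size, 2 fell in WT and 4 fell in KO, where 52.3% and 58.1% of all genes fell. In KO, where Gdf15 was lower, 7 were higher and 2 lower in SD, beside 35.6% and 21.5% of all genes. In TGF, 7 were higher and 4 lower in KO, beside 28.9% and 26.3%. Trib3, a pseudokinase induced by ATF4, rose from 9.88 to 21.9 CPM with TGF-β in WT and was 35.1 CPM in KO-SD and 61.2 CPM in KO-TGF, a difference from WT of 1.83 in SD (adjusted p = 1.077e-19 in edgeR) and 1.48 in TGF (adjusted p = 1.282e-19 in edgeR). Asns, the asparagine synthetase gene, and Chac1, which degrades glutathione, both targets of ATF4, were higher in KO-TGF than in WT-TGF by 0.84 and 1.17 (adjusted p = 2.89e-22 and 1.563e-15 in edgeR). Egr1, an immediate early transcription factor, rose with TGF-β by 1.29 in WT and 0.91 in KO (adjusted p = 1.109e-25 and 2.117e-21 in edgeR) and in TGF its KO level was lower by -0.38 (adjusted p = 2.223e-12 in edgeR). Of the p53 targets on the list, named with their values in view, Cdkn1a and Mdm2 were lower in KO, as Gdf15 was, and Sesn2 was higher. Cdkn1a differed by -0.41 in SD and -0.43 in TGF (adjusted p = 2.306e-16 and 1.047e-16 in edgeR). Mdm2 differed by -0.15 and -0.39 (adjusted p = 1.928e-05 and 2.586e-13 in edgeR). Under TMM scaling both rose with TGF-β in WT, by 0.21 and 0.31, where Gdf15 fell. Sesn2, on the same list, was higher in KO by 0.35 in SD and 0.52 in TGF. Under TMM scaling the p53 gene Trp53 differed by 0.11 in SD and -0.10 in TGF. A link between p53 and the Gdf15 values was not tested.

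The 4 proprotein convertases, which cut the precursors of the superfamily, held the largest difference between the genotypes in SD among the genes named, cell type markers left aside. Pcsk5 was at 43.6 CPM in WT-SD, 155 in WT-TGF, 6.04 in KO-SD and 30.9 in KO-TGF, lower in KO by a log2 fold change of -2.85 in SD (adjusted p = 3.963e-25 in edgeR) and -2.32 in TGF (adjusted p = 1.42e-27 in edgeR), although TGF-β raised it in both genotypes. Pcsk6 was lower in KO by -2.03 and -2.10 (adjusted p = 4.487e-22 and 5.406e-21 in edgeR). Furin, the most widely used of these enzymes, rose with TGF-β from 116 CPM to 241 in WT and from 117 CPM to 249 in KO (1.06 and 1.09, adjusted p = 1.906e-24 and 9.095e-25 in edgeR).

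The genes whose log2 CPM followed each member most closely over the 12 libraries are given as a description. These libraries fall into 4 groups, so that a high Pearson r mainly reflects a shared order of the groups. Inhba was followed by Acbd3, Wnt9a and the receptor gene Acvr1 (r 0.998, 0.998 and 0.997). Fstl3 was followed by Cdr2, Lrrc32 and Kif26b (each 0.998), and Fstl1 by Manf, Rpn1 and Loxl2 (each 0.999). Fst was followed by Tmem176b, Svep1 and Sall1 (0.998, 0.996 and 0.995), Gdf15 by Tap2, Nfkbie and Cxxc5 (0.989, 0.989 and 0.987), and Inhbb, less closely, by Gprasp1, Ank2 and Hivep1 (0.967, 0.960 and 0.959). The receptor genes were followed by Xbp1, Tnfrsf23 and Lmna for Acvr1 (0.999, 0.998 and 0.998), Naa80, Fignl2 and Cdh16 for Acvr1b (0.995, 0.989 and 0.988), Calcoco1, Cped1 and Klhdc8b for Acvr2b (0.992, 0.990 and 0.989) and Erlin2, Cab39l and Sfxn1 for Acvr2a (0.956, 0.942 and 0.941). Cdh16 is on the list of tubular markers, at 27.0 CPM in WT-SD, 6.15 in WT-TGF, 2.72 in KO-SD and 0.537 in KO-TGF. On that list the means of Lrp2 had the same order of groups, and Aqp1 did not, at 4.03, 0.569, 6.82 and 0.251 CPM. The tubular sum did not step down from WT-TGF (18.02 to 19.6 CPM) to KO-SD (19.2 to 22.3 CPM), as Acvr1b did. The part of tubular RNA in the Acvr1b values was not tested. Among the members themselves, Inhba and Fstl3 (r 0.987), Inhba and Acvr1 (0.997), Fst and Gdf15 (0.970) and Fst and Acvr1b (0.974) had like patterns, and Acvr2a followed none of them upward beyond r = 0.104.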

How the data were processed

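Each of the 12 files deposited by the authors holds raw counts, 1 whole number per gene, without normalization. Per the methods of the study, mRNA libraries were sequenced from a single end, aligned to mm10 with TopHat and counted by strand on RefSeq genes with HTSeq-count. Reads that fell on no exon of the counted strand were 10.3% to 15.4% of the table totals, highest in WT-SD and lowest in KO-TGF. Ambiguous reads were 0.225% to 0.274% and reads with several alignments 11.2% to 11.7% of the same totals. All of these stayed out of library sizes. Exon lengths came from GENCODE vM21, with 496 genes left without one and not tested.

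Genes with RPKM >1 in at least 1 library (11478) were tested in edgeR 4.0.16 (R 4.3.3), by quasi-likelihood after TMM, with p-values adjusted after Benjamini-Hochberg, in a single fit of 12 libraries with 5 contrasts: the TGF-β response of WT, that of KO, the genotypes in SD, the genotypes in TGF, and the difference of the responses (interaction). Standard errors and 95% intervals came from the same fit. The genes named are the 10 members and, per list, up to 4 genes with FDR <5% and fold change >2. The members and lists were chosen with earlier results of these data known. Likeness is Pearson r of log2 CPM (prior count 2).

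Alternatives were library size scaling, DESeq2 1.42.0, no filter, keeping genes with CPM >1 in 3 or more libraries, fitting the compared groups alone, a block for the replicate number, and leaving out each library.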

Additional observations from a re-analysis of the deposited data

Results flagged for a closer look

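The TGF-β response differed between WT and KO cells, in the interaction term of edgeR's quasi-likelihood fit (Benjamini-Hochberg adjusted), for 3 of the 10 members. The difference of KO minus WT was 0.59 for Inhbb (adjusted p = 1.076e-05), which fell in WT and did not pass the test in KO. It was -0.72 for Fstl3 (adjusted p = 3.13e-09) and -0.13 for Fstl1 (adjusted p = 0.0005051), both of which rose in both genotypes and rose less in KO.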

How the results depend on the processing

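Of 50 pairs of a member and a contrast, 40 kept their direction and their side of the threshold under every alternative run, and of 890 such values 868 did. The TGF-β response of Acvr2a in KO turned to -0.19 when scaled by library size and ranged from -0.012 (without KO-SD replicate 3) through -0.011 (leaving out KO-SD replicate 2) to 0.12 with a library left out. Differences of responses near 0 also changed sign, Inhba to 0.0027 without WT-TGF replicate 1 and 0.040 without KO-SD replicate 1 (range -0.10 to 0.040 with a library left out), Fst to 0.0033 without KO-TGF replicate 2 (range -0.034 to 0.0033) and 0.026 with DESeq2, and Acvr2b to 0.014 without WT-TGF replicate 3 (range -0.089 to 0.014). The cause was not tested. The number of members whose response, KO minus WT, differed in the positive direction went from 1 to 2 with no filter, with DESeq2 and with the replicate block, and ranged from 1 to 2 with a library left out. The added member was Acvr2a (0.19, adjusted p = 0.01897 with no filter, 0.23 and 0.04334 with DESeq2, 0.24 and 0.02078 without WT-TGF replicate 1, 0.28 and 0.0003657 without KO-SD replicate 1, against 0.19 and 0.06706 in edgeR as reported). With a library left out, the other counts of members moved by at most 1. The mean ratio of Inhba to Fst ranged from 0.718 to 0.735 in WT-SD, 4.70 to 4.93 in WT-TGF, 1.64 to 1.78 in KO-SD and 11.1 to 11.3 in KO-TGF with a library left out, and with Fstl3 added to Fst it was 0.691, 2.74, 1.499 and 4.84.

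The groups share replicate numbers 1 to 3, but same-numbered libraries deviated together only weakly (r from -0.0285 to 0.0866 over 18 pairs, and from -0.0949 to 0.0392 over 36 other pairs), with 10 of 12 libraries closest to their own number, a hint from the data only. With the replicate block the difference of responses of Acvr2a was 0.19 (adjusted p = 0.01334 in edgeR), and no other call of a member changed. Depth limits Gdf15 in KO-TGF, at 14 to 25 counts, most.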
